A study of Canis lupus familiaris with 20 samples.

Results

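The 9 complement genes C3, C1QA, C1QB, C1QC, C1R, C1S, C2, CFB and SERPING1 were followed here through 22 array probes, out of 13933 gene symbols that the array names. A probe was taken when its gene name or its description in the array files was one of the 9 genes, and the probe of a gene with the highest mean signal over the 20 arrays was its main probe. The members were not chosen by a threshold on measured values. No member probe was saturated on any array, and all 22 were kept by the filter on dim probes.

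Complement is a cascade of blood and tissue proteins that tags targets and can lyse cells. In the classical pathway C1q, built of the C1QA, C1QB and C1QC chains, binds a target and the proteases C1r and C1s then cleave C4 and C2. In the alternative pathway factor B (CFB) supplies the protease, and both routes cleave C3, the central component, while C1 inhibitor (SERPING1) inactivates C1r and C1s. In the retina, microglia are known as a source of C1q, and C3 is made by glia and other cells under inflammatory stimuli.

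The tissue was dog retina, collected with choroid, 1 week after an injection into each eye. The right eye of each of 10 dogs received 12 µg of CNTF, ciliary neurotrophic factor, a cytokine that signals through gp130 and protects photoreceptors in several models of retinal degeneration, and the left eye received the buffer PBS. Of the dogs 5 were CNGB3m/m, homozygous for the D262N change in CNGB3, which encodes part of the cation channel of cones and whose loss causes achromatopsia (day blindness). The other 5 are called normal in the labels, but normal dogs 1, 2, 4 and 5 carried 1 mutant allele (CNGB3+/m) and only normal dog 3 was CNGB3+/+. Normal dogs were all male and 8.9 weeks old in the sample labels; mutant dogs 1 and 4 were male, mutant dogs 2, 3 and 5 female, and their labelled ages ran from 10.7 to 11.5 weeks, whereas the study's design text speaks of about 11 months. Sex and age therefore move with genotype. All dogs came from 1 research colony. Each of the 4 groups (PBS normal, CNTF normal, PBS mutant, CNTF mutant) holds 5 eyes of 5 dogs, and replicates are separate dogs.

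Each eye was read on 1 single-colour Agilent array. A level below is the log2 of the processed signal minus the log2 of that array's 75th percentile, so that 0 is the 75th percentile of the array, and levels are compared only within a probe. Differences were tested with limma, with the dog as a block for CNTF against PBS, and p-values were adjusted (Benjamini-Hochberg) over all probes kept. A probe is called at an adjusted p under 0.05. Arrays were run on 5 slides of 4, and no slide held the PBS and the CNTF eyes of the same genotype. Slide 3 held CNTF eyes of normal dogs 1 and 2 with PBS eyes of mutant dogs 4 and 5. The array of the PBS eye of mutant dog 2 stood somewhat apart, with r of 0.913 to 0.970 to the other PBS arrays, which correlated with each other at 0.944 to 0.990. Of 12 photoreceptor genes listed to check the tissue, 11 were well above background on every array that measured them, and GNAT2 on all but 2, both CNTF eyes of mutant dogs.

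The probes are 60 bases long, and the sequences of C3 and C2 are printed because results are given below for each of their probes and their sizes differ. Positions are those in the array files, on canFam2. The C3 main probe A_11_P076931 lies at chr20:56542868-56543122 on the plus strand, a span of 255 bases for 60 bases of probe, so it crosses a gap in the genome alignment. The C3 probes A_11_P076936 and A_11_P166633 overlap by 55 bases, in capitals below, and are not independent readings. The fourth sequence is the C3 probe farthest upstream, A_11_P150143, at chr20:56515520-56515859.
C3 A_11_P076931: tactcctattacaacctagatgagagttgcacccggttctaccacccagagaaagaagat
C3 A_11_P076936: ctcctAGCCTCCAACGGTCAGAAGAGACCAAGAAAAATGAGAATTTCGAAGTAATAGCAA
C3 A_11_P166633: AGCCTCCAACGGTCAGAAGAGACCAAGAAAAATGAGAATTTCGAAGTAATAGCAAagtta
C3 A_11_P150143: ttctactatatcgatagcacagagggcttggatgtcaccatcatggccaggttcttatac

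C2 and CFB are neighbouring genes, with 0 protein-coding genes between them in RefSeq's UU_Cfam_GSD_1.0 annotation, and the array files give the name CFB to the probes of both. The probes were given to C2 where the described transcript is component 2. The C2 main probe A_11_P157023 lies at chr12:4394651-4394710 and the other C2 probe, A_11_P090746, at chr12:4401633-4401692. The CFB main probe A_11_P0000020638 lies at chr12:4408922-4408981 and the other, A_11_P175423, at chr12:4403928-4403987. No C2 probe shares a run of more than 9 bases with a probe of another member.
C2 A_11_P157023: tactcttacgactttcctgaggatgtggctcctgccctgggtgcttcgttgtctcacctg
C2 A_11_P090746: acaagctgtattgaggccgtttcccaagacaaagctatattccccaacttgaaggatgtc
CFB A_11_P0000020638: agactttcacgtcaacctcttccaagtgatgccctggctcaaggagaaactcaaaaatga
CFB A_11_P175423: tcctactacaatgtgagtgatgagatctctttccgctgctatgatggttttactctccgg

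The C1q chains are likewise neighbours, C1QB beside C1QC and C1QC beside C1QA, and so are C1S and C1R, each pair with 0 protein-coding genes between in that annotation. The C1QA probe lies at chr2:79560787-79560846, the C1QB probe at chr2:79543071-79543130 and the C1QC main probe at chr2:79552564-79552623, all on the minus strand. The description of some C1QC probes speaks of the B chain although the files name them C1QC. One probe of each chain is shown so that the related chains can be compared. The longest run shared by probes of different members is 11 bases, between C1QA and C1QB.
C1QA A_11_P0000023402: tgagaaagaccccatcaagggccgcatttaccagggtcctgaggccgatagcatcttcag
C1QB A_11_P0000030995: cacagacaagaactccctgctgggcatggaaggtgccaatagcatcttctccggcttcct
C1QC A_11_P193453: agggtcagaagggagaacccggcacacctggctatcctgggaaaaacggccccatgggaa

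All 9 complement genes rose in CNTF eyes of normal dogs and all 9 rose in CNTF eyes of mutant dogs. Among all 29334 probes tested, 23.6% were called higher and 27.6% lower in normal dogs, and 11.6% higher and 17.3% lower in mutant dogs. The differences of the 9 genes ran from 0.74 (C2) to 7.47 (C3) on the log2 scale in normal dogs, with a median of 3.77, and from 0.43 to 6.70 in mutant dogs, with a median of 3.29. The median over all probes was -0.09 in each genotype. The 9 adjusted p-values lay between 9.34e-08 and 0.000354 in normal dogs and between 2.22e-07 and 0.0124 in mutant dogs (limma). All 21 member probes that could be tested were called higher in both genotypes. C3 A_11_P150143 and A_11_P00000914, C1R A_11_P185148 and C1S A_11_P150838 met the filter on dim probes only through CNTF eyes. For these the filter itself favoured a call of higher.

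**Figure D1:**
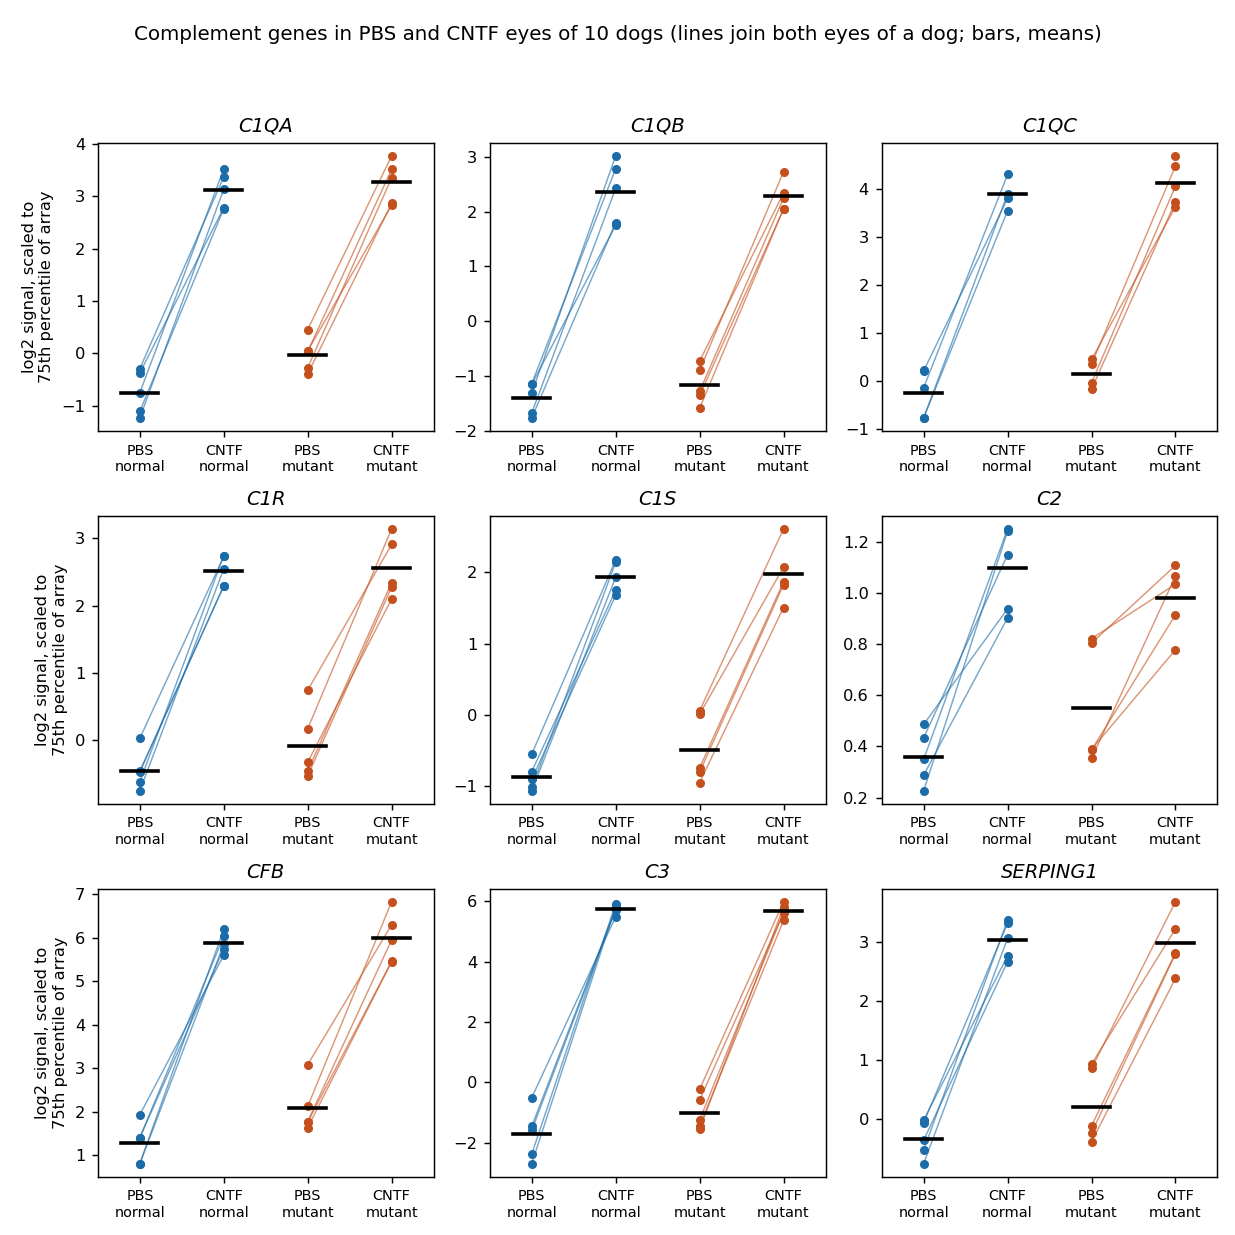
Level of each complement gene in every eye (log2 signal relative to the array's 75th percentile), with points for single eyes, lines joining both eyes of a dog and black bars for group means; the SERPING1 panel shows its second probe, and C1QC lacks 1 CNTF normal and 1 PBS mutant eye. In all 9 panels every measured CNTF eye of normal dogs is above every PBS eye of normal dogs, and the C2 panel spans the narrowest range.

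C3, on which both pathways converge, had the largest difference of the 9. Its main probe read -1.46, -1.58, -2.70, -0.51 and -2.38 in the PBS eyes of normal dogs 1 to 5, and 5.77, 5.72, 5.83, 5.49 and 5.92 in their CNTF eyes. In mutant dogs 1 to 5 it read -0.58, -0.23, -1.25, -1.56 and -1.44 in PBS eyes and 5.63, 5.99, 5.64, 5.82 and 5.37 in CNTF eyes. CNTF and PBS eyes did not overlap in either genotype, and the PBS eyes were more spread out (SD 0.86 in normal and 0.58 in mutant dogs, n = 5 each) than the CNTF eyes (SD 0.16 and 0.23). C3 rose by 7.47 ± 0.31 (SE) in normal dogs, which is 178-fold, and by 6.70 ± 0.31 in mutant dogs, which is 104-fold. In order of size this C3 probe ranked 11 of 29334 probes in normal dogs and 14 in mutant dogs by fitted value, probes near background in PBS eyes included.

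Of the other C3 probes, 4 gave differences of 6.60 to 7.87 in normal dogs and 6.17 to 7.02 in mutant dogs. For A_11_P150143 no PBS array of either genotype was well above background, so its change is a bound: at least 22.7-fold in normal and at least 16.6-fold in mutant dogs. These bounds set the mean of the CNTF arrays against the higher of the dim probe's own signal and the lowest signal among probes well above background on each PBS array. The probe A_11_P00000914 was well above background on 2 of 5 PBS arrays in each genotype. All 6 C3 probes therefore moved the same way, with the overlapping pair, A_11_P076936 and A_11_P166633, at 6.60 and 7.83 in normal dogs and 6.17 and 6.79 in mutant dogs. A_11_P150143 and A_11_P00000914 passed the filter only through CNTF eyes, which favoured that direction.

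The C1q chains, the recognition subunits of the classical pathway, rose by 3.77 to 4.24 on the log2 scale in normal dogs. C1QA read -0.29, -1.11, -1.23, -0.37 and -0.75 in PBS eyes of normal dogs 1 to 5 and 3.37, 2.77, 3.13, 2.78 and 3.52 in their CNTF eyes. Mutant dogs 1 to 5 read -0.28, 0.46, -0.39, 0.04 and 0.05 in PBS eyes and 3.35, 3.77, 2.86, 3.51 and 2.83 in CNTF eyes. The CNTF eyes were higher in 5 of 5 dogs of each genotype, with no overlap. C1QA rose by 3.87 ± 0.17 (14.6-fold, adjusted p = 1.5e-07, limma) in normal dogs and by 3.29 ± 0.17 (9.79-fold, adjusted p = 4.3e-07) in mutant dogs.

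C1QB, the second chain, read -1.14, -1.77, -1.68, -1.16 and -1.31 in PBS eyes of normal dogs and 2.78, 1.80, 2.43, 1.75 and 3.02 in their CNTF eyes. In mutant dogs it read -1.28, -0.90, -1.36, -1.59 and -0.73 in PBS eyes and 2.25, 2.73, 2.05, 2.05 and 2.34 in CNTF eyes. Among normal dogs the CNTF eyes of dogs 2 and 4 were the lower ones for this gene, and all lay above the PBS eyes. The difference was 3.77 ± 0.18 (13.6-fold) in normal and 3.46 ± 0.18 (11.0-fold) in mutant dogs.

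C1QC, the third chain, had a main probe that was marked as an outlier spot, and left out of the fit, in the CNTF eye of normal dog 1 and the PBS eye of mutant dog 2. It read 0.23, -0.76, -0.77, 0.21 and -0.14 in PBS eyes of normal dogs 1 to 5, and 3.54, 3.89, 3.79 and 4.29 in CNTF eyes of normal dogs 2 to 5. Mutant dogs gave -0.04, -0.17, 0.35 and 0.45 in PBS eyes of dogs 1, 3, 4 and 5, and 4.05, 4.68, 3.72, 4.47 and 3.62 in CNTF eyes of dogs 1 to 5. CNTF and PBS eyes stood far apart in both genotypes. C1QC rose by 4.24 ± 0.21 (18.9-fold) in normal and by 3.82 ± 0.21 (14.1-fold) in mutant dogs over these arrays. Its other probes, measured on all 20 arrays, gave 3.48 and 4.19 in normal dogs and 3.22 and 3.66 in mutant dogs.

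The proteases of the C1 complex rose too, with smaller estimates than the main probes of the C1q chains. C1R read 0.02, -0.48, -0.76, -0.47 and -0.63 in PBS eyes of normal dogs 1 to 5 and 2.73, 2.29, 2.55, 2.29 and 2.75 in their CNTF eyes. In mutant dogs it read -0.46, 0.74, -0.54, 0.16 and -0.33 in PBS eyes and 2.34, 2.91, 2.28, 3.14 and 2.10 in CNTF eyes. The PBS eyes of mutant dogs 2 and 4 were the highest PBS eyes, and their CNTF eyes were the highest CNTF eyes. The difference was 2.98 ± 0.14 (7.91-fold) in normal and 2.64 ± 0.14 (6.24-fold) in mutant dogs, and the other C1R probes gave 3.01 and 3.49 in normal and 2.54 and 2.47 in mutant dogs. At the probe with 3.49 and 2.47, 1 of 5 PBS arrays of normal dogs and 3 of 5 of mutant dogs were well above background.

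C1S, which C1r activates and which cleaves C4 and C2, read -0.55, -0.90, -1.06, -0.79 and -1.02 in PBS eyes of normal dogs and 2.17, 1.68, 1.93, 1.75 and 2.14 in their CNTF eyes. In CNGB3-mutant dogs the values were -0.95, 0.01, -0.74, 0.06 and -0.80 in PBS eyes and 1.50, 2.07, 1.86, 2.61 and 1.83 in CNTF eyes. Among mutant dogs, dogs 2 and 4 again had the highest PBS and the highest CNTF levels. C1S rose by 2.80 ± 0.12 (6.95-fold) in normal and by 2.46 ± 0.12 (5.50-fold) in mutant dogs. Its other probe gave 3.29 and 2.92, with 1 of 5 PBS arrays of normal dogs and 2 of 5 of mutant dogs well above background.

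C2, the protease subunit of the classical C3 convertase, gave different sizes at its probes. The main probe A_11_P157023 read 0.43, 0.49, 0.23, 0.29 and 0.35 in PBS eyes of normal dogs 1 to 5 and 1.15, 0.94, 1.24, 0.90 and 1.25 in their CNTF eyes. In mutant dogs it read 0.39, 0.82, 0.80, 0.35 and 0.39 in PBS eyes and 0.91, 1.03, 1.11, 1.07 and 0.78 in CNTF eyes. The CNTF eye was higher in 5 of 5 dogs of each genotype, but in mutant dogs the groups overlapped, since the PBS eyes of dogs 2 and 3 lay above the CNTF eye of dog 5. The difference was 0.74 ± 0.11 (1.67-fold, adjusted p = 0.000354, limma) in normal dogs and 0.43 ± 0.11 (1.35-fold, adjusted p = 0.0124) in mutant dogs.

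At the other C2 probe, A_11_P090746, the PBS eyes of normal dogs read -0.69, -1.11, -1.55, -0.89 and -1.59 and their CNTF eyes 2.08, 1.66, 1.94, 1.47 and 1.99. In mutant dogs that probe read -0.91, -0.05, -0.87, -0.56 and -0.43 in PBS eyes and 1.64, 2.29, 1.54, 2.35 and 1.55 in CNTF eyes. It was well above background on all 20 arrays. The difference there was 2.99 ± 0.18 (7.97-fold) in normal and 2.44 ± 0.18 (5.42-fold) in mutant dogs, close to the values of C1R, and CNTF and PBS eyes did not overlap. The probes of C2 therefore agreed in direction and disagreed in size. In mutant dogs the call at the main probe was lost with normexp background correction (0.31) and without mutant dog 4 (0.36).

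CFB, the protease subunit of the alternative C3 convertase, had the second largest difference of the 9 in both genotypes. Its main probe read 1.40, 1.41, 0.81, 1.93 and 0.81 in PBS eyes of normal dogs and 6.03, 5.75, 5.85, 5.60 and 6.19 in their CNTF eyes. Among mutant dogs the readings were 1.63, 3.08, 1.77, 2.12 and 1.76 in PBS eyes and 5.45, 6.29, 5.95, 6.82 and 5.45 in CNTF eyes. The PBS eye of mutant dog 2 was the highest PBS eye and still lay below every CNTF eye. CFB rose by 4.61 ± 0.24 (24.4-fold) in normal and by 3.92 ± 0.24 (15.1-fold) in mutant dogs, and its other probe gave 4.51 and 3.85.

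SERPING1, which encodes the C1 inhibitor, rose in both genotypes, as the proteases it inactivates did. Its brightest probe was marked as an outlier spot on the CNTF arrays of mutant dogs 2, 3 and 5, which left too few arrays to test, so the second probe, A_11_P073356 at chr18:41641255-41641314, stands for the gene below. That probe read -0.06, -0.36, -0.76, -0.02 and -0.53 in PBS eyes of normal dogs 1 to 5 and 3.32, 2.67, 3.06, 2.76 and 3.37 in their CNTF eyes. In mutant dogs it read -0.24, 0.93, -0.12, 0.85 and -0.39 in PBS eyes and 2.80, 3.22, 2.81, 3.68 and 2.38 in CNTF eyes. CNTF and PBS eyes did not overlap in either genotype, and among mutant dogs, dogs 2 and 4 had the highest levels in both eyes. SERPING1 rose by 3.38 ± 0.17 (10.4-fold) in normal and by 2.77 ± 0.17 (6.84-fold) in mutant dogs. The brightest probe read 2.89 to 3.62 in PBS eyes and 6.12 to 6.71 in CNTF eyes of normal dogs, and 6.20 and 6.77 on the CNTF arrays of mutant dogs 1 and 4 that measured it.

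**Figure D2:**
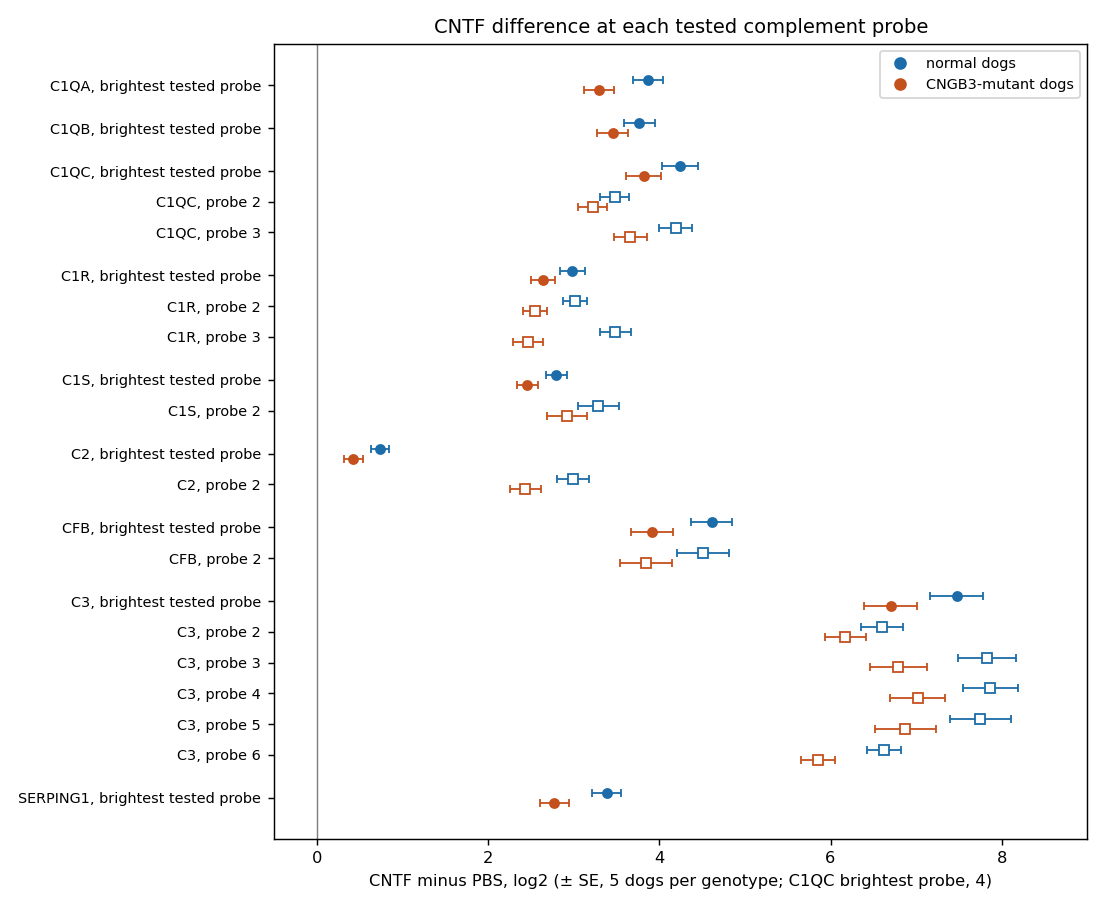
CNTF minus PBS difference (log2, points, with bars of 1 SE) at each tested probe of the 9 genes, in normal (blue) and CNGB3-mutant (orange) dogs; filled circles are the brightest tested probe of a gene and open squares its other probes. All 21 probes lie above 0 in both genotypes, and the sixth C3 probe rests on PBS arrays not above background. That probe, C3 A_11_P00000914, C1R A_11_P185148 and C1S A_11_P150838 were kept only through CNTF eyes. The C2 main probe, at 0.74 and 0.43, lies far below the second C2 probe, at 2.99 and 2.44.

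Every CNTF eye was above every PBS eye for all 9 genes in normal dogs, where 14.2% of all probes tested had that separation. In mutant dogs this held for 8 of the 9, where 6.88% of all probes had it. C2 was the exception at its main probe, while its other probe, A_11_P090746, did not overlap. The same dogs recurred as highest or lowest over these genes, which share their arrays and each array's 75th percentile. Normal dog 4 had the smallest CNTF difference for 7 of the 9 genes, and the CNTF eye of normal dog 5 was the highest for 8. The array of that CNTF eye of dog 5 had the lowest 75th percentile of its group (a signal of 354). Before scaling, that eye was not the highest of its group for any of the 9 genes. The PBS eye of mutant dog 2 was the highest of its group for 6 genes. Its array also had the lowest 75th percentile of its group (291). Before scaling, it was the highest among those 6 only for CFB. The part of this scaling in the order of dogs was not tested. In CNTF eyes of mutant dogs the highest was dog 2 for C3, C1QA, C1QB and C1QC, dog 4 for C1R, C1S, CFB and SERPING1, and dog 3 for C2.

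Slide moves with CNTF treatment in this layout. It moves in part with genotype too: PBS eyes of normal dogs were on slides 1 and 2 and those of mutant dogs on 2 and 3. CNTF eyes of normal dogs were on slides 3 and 4 and those of mutant dogs on 4 and 5. With slide as a block in place of dog, 8 of the 9 genes were called in normal dogs, C2 being lost (0.99, adjusted p = 0.0796, limma). In mutant dogs 5 were called, and C1R (2.41, adjusted p = 0.0603), C1S (1.86, 0.0854), C2 (0.46, 0.617) and SERPING1 (2.49, 0.0975) were lost. Over the array that fit called 862 of 29280 probes higher in normal and 499 of 29204 in mutant dogs. With slide and dog both as blocks 0 of 9 were called in either genotype, with adjusted p of 0.0694 to 0.302 in normal and 0.0952 to 0.535 in mutant dogs (limma). The estimates stayed above 0, at 0.96 to 8.85 and 0.59 to 6.75. Over the array that fit called 0 of 29221 probes higher in normal and 37 of 29119 in mutant dogs. The loss of calls is therefore not particular to these 9 genes. Within slide 3, CNTF eyes of normal dogs 1 and 2 exceeded PBS eyes of mutant dogs 4 and 5 by 7.25 for C3, 3.02 for C1QA, 3.45 for C1QB, 3.14 for C1QC and 2.60 for C1R. The same contrast gave 2.30 for C1S, 0.67 for C2, 3.95 for CFB and 2.76 for SERPING1. That contrast on 1 slide also compares genotypes, and it carries no test.

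These are bulk samples, in which a change in the number of cells of a type and a change in RNA per cell cannot be told apart. Markers of immune cells rose in CNTF eyes beside the complement genes. Of 14 listed genes of microglia and macrophages, all on the array, 11 were tested. Of these, 11 were called higher in normal and 10 in mutant dogs, against 23.6% and 11.6% of all probes. A probe bright in any 1 group was kept, so genes dim in PBS eyes could enter through CNTF eyes alone. The list's median difference was 2.41 in normal and 2.53 in mutant dogs. It was 1.86 and 1.92 with genes above background on no PBS array set at their bound. The summed linear level of the list, over the 12 genes measured on all arrays and in units of the array's 75th percentile, was 4.37 to 5.66 in PBS and 15.8 to 24.0 in CNTF eyes of normal dogs. In mutant dogs it was 5.96 to 8.43 in PBS and 16.4 to 25.4 in CNTF eyes. The microglial receptor P2RY13 was above background on no array. Of 4 tested blood monocyte genes 3 were called higher in both genotypes, with sums of 0.842 to 1.00 in PBS and 3.07 to 4.15 in CNTF eyes of normal dogs, and 0.956 to 1.63 and 3.70 to 6.02 in mutant dogs. The median difference of the 4 was 2.32 in normal and 2.43 in mutant dogs. It was 2.06 and 2.03 with genes above background on no PBS array set at their bound. The monocyte receptor CCR2 was above background on no array.

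Other cell types gave mixed counts. Over all probes tested, 23.6% were called higher and 27.6% lower in normal dogs, and 11.6% and 17.3% in mutant dogs. Counts near those shares are not results about a cell type. Of 5 tested T and NK cell genes 3 were called higher in both genotypes, of 6 neutrophil genes 2 in normal and 1 in mutant dogs with 1 lower in each, and of 3 B cell genes 0 with 2 lower in each. Of 8 tested Müller glia genes 6 were called higher and 1 lower in normal dogs, and 2 higher and 2 lower in mutant dogs. Of 7 endothelium and pericyte genes 3 were higher and 2 lower in normal dogs, and 1 higher and 1 lower in mutant dogs. Of 8 pigment epithelium and melanocyte genes 3 were lower in normal and 2 in mutant dogs, and 0 higher. Photoreceptor genes were called lower for 6 of 12 in normal dogs, with 1 higher, and for 9 of 12 in mutant dogs. The part of these cell types in the complement levels was not tested.

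Whether the CNTF difference itself depended on genotype was asked with the difference of the CNTF effect, mutant minus normal. None of the 9 genes was called, with adjusted p of 0.115 to 0.378 (limma), and the background was 0% of all probes called, although 10162 of 29334 probes had an unadjusted p under 0.05. All 9 estimates were below 0, from -0.77 (C3) to -0.31 (C2), with a median of -0.42 against -0.06 over all probes, of which 45.7% were above 0. C1QA (-0.57, 95% interval -1.12 to -0.03) and SERPING1 (-0.61, -1.14 to -0.08) had an unadjusted p under 0.05. For C3 the interval ran from -1.74 to 0.20 and for CFB (-0.69) from -1.45 to 0.07. With slide as a block the C1QC estimate was 0.03 in place of -0.42.

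In PBS eyes, mutant dogs were not called different from normal dogs for any of the 9 genes, with adjusted p of 0.0953 to 0.375 (limma). All probes tested gave 0.0272% called, 8 of 29422, although 10183 had an unadjusted p under 0.05. The 9 estimates were above 0, from 0.19 (C2) to 0.80 (CFB), with a median of 0.39 against 0.008 over all probes, and all 22 member probes were above 0. These estimates and those of the difference of the CNTF effect share the PBS eyes. CFB (0.80, 95% interval 0.15 to 1.46) and C1QA (0.73, 0.24 to 1.21) had an unadjusted p under 0.05. The interval for C3 (0.71) ran from -0.16 to 1.59. Slide moves in part with genotype among these eyes. With slide as a block the 9 estimates ran from 0.03 (C1QC) to 1.69 (C3), with CFB at 1.35, and none was called. No gene had every mutant PBS eye above every normal PBS eye, a separation that 3.13% of all probes had.

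The count of calls depended on normal dog 1. Without normal dog 1, 6292 probes were called in PBS eyes and C1QA was among them (0.84, adjusted p = 0.0368, limma). Among male dogs only, the C1QB estimate was -0.02. The microglia and macrophage sum was 4.37 to 5.66 in PBS eyes of normal and 5.96 to 8.43 in PBS eyes of mutant dogs, with no overlap, and 0 of its 11 tested genes were called between the genotypes. Its part in the PBS estimates was not tested.

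In CNTF eyes the genotypes lay close together. None of the 9 genes was called, each with an adjusted p of 0.9996 (limma) and an unadjusted p over 0.05, where 0.00681% of all probes were called. The estimates ran from -0.12 (C2) to 0.23 (C1QC), 5 above and 4 below 0. The interval for C3 (-0.06) was -0.37 to 0.25, and for CFB (0.11) it was -0.45 to 0.68, so differences within these bounds are not excluded. With slide as a block the 9 estimates ran from -0.43 (C1S) to 0.21 (C1QA), and none was called. In the order of group means, PBS eyes of normal dogs were lowest and PBS eyes of mutant dogs next for all 9 genes. The CNTF groups followed, with mutant dogs above normal dogs for 5 genes and below for 4. Neither the PBS pair nor the CNTF pair was called for any of the 9 genes after adjustment, while CNTF and PBS eyes of a genotype were, in the fit with dog as the only block.

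**Figure D3:**
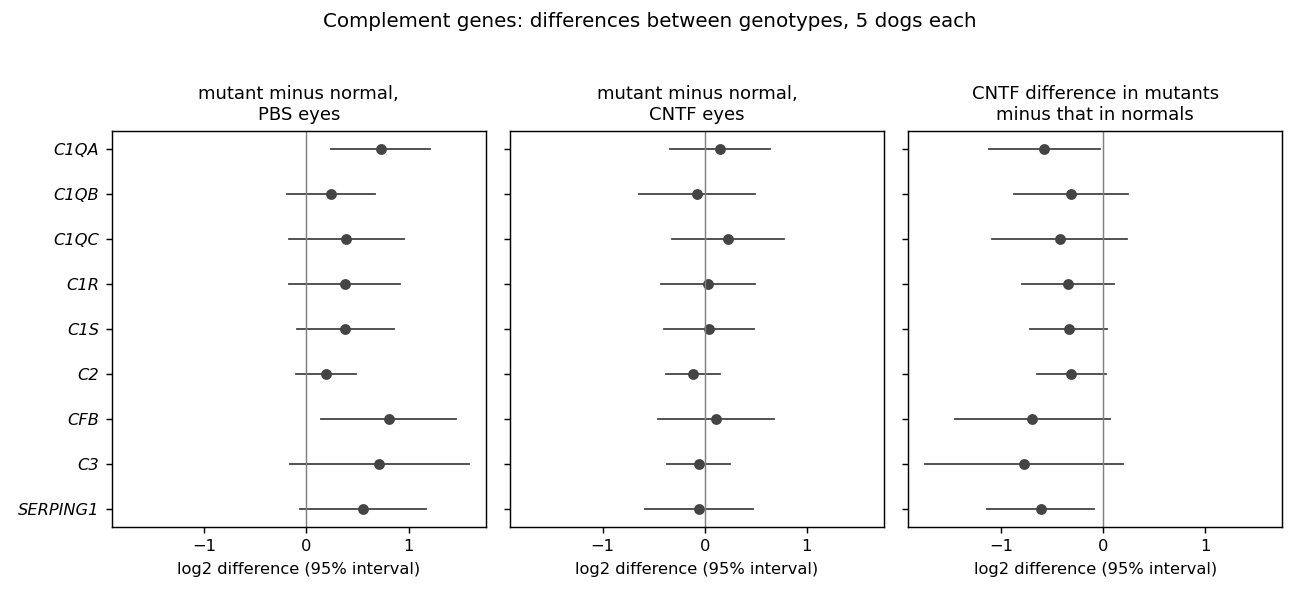
Estimates (points) and 95% intervals (lines), on the log2 scale, for mutant minus normal dogs in PBS eyes, the same in CNTF eyes, and the CNTF difference in mutants minus that in normals, with 5 dogs per genotype. PBS estimates lie at 0.19 to 0.80, CNTF estimates at -0.12 to 0.23 and the differences of the CNTF effect at -0.77 to -0.31, with 0 genes called in any panel.

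The rest of the cascade was read from 4 lists of other complement genes, of which 34 genes are on the array and 23 were tested. Genes called in any comparison are named, with values for at most 6 per list. The shares over all probes, for each list below, were 23.6% higher and 27.6% lower in normal dogs. In mutant dogs they were 11.6% and 17.3%, and counts near these shares are not results about a list. Of 4 tested genes that start the classical and lectin pathways 1 was called higher in both genotypes. This was C4, which C1s cleaves, at 2.48 ± 0.17 in normal and 2.04 ± 0.17 in mutant dogs. MASP1, a protease of the lectin pathway, was called lower in normal dogs (-0.95 ± 0.20, adjusted p = 0.0034, limma), but gave -0.04 with normexp background correction, and it read 0.03 in mutant dogs. The median of these 4 genes was 0.02 in normal and -0.02 in mutant dogs.

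Among 4 tested genes of the alternative pathway and terminal components, 1 was called higher and 1 lower in normal dogs, and 2 higher in mutant dogs. Factor D (CFD), which cleaves factor B, rose by 0.82 ± 0.16 in normal and by 0.76 ± 0.16 in mutant dogs. Properdin (CFP), which stabilizes the alternative convertase, was at 0.25 ± 0.31 in normal dogs and was called in mutant dogs (0.99 ± 0.31, adjusted p = 0.0353, limma), a call lost without any one of mutant dogs 1, 2, 4 or 5, with quantile or normexp scaling, with the deposited values, with no filter and with no dog block. C8A, a chain of the membrane attack complex, was called lower in normal dogs (-1.01 ± 0.25) but gave -0.17 with normexp background correction, and was at -0.34 ± 0.25 in mutant dogs. The median of the 4 genes was 0.37 in normal and 0.35 in mutant dogs. C5, C6, C8B, C8G and C9 were too dim to be kept.

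Among the regulators 6 of 9 tested genes were called higher in normal dogs and 5 in mutant dogs, and 0 lower, with medians of 1.60 in normal and 1.51 in mutant dogs. C4BPA, the alpha chain of C4b-binding protein, was called higher at all 3 of its probes in both genotypes. Its brightest probe was well above background on none of the PBS arrays of normal dogs, so its rise there is a bound of at least 225-fold. In mutant dogs that probe was above background on 1 of the 4 PBS arrays that measured it, and the fitted difference of 9.01 ± 0.57 rests on dim PBS signals. A second probe, A_11_P098666, was above background on no PBS array and gave at least 107-fold in normal and at least 90.9-fold in mutant dogs. The filter kept the brightest probe and A_11_P098666 only through CNTF eyes. The third, A_11_P0000024931, above background on 4 of 5 PBS arrays of normal and 2 of 5 of mutant dogs, gave only 3.44 ± 0.64 and 4.47 ± 0.64, so the probes agreed in direction and disagreed in size. Factor I (CFI), which inactivates C3b and C4b, rose by 3.09 ± 0.20 in normal and by 2.93 ± 0.26 in mutant dogs. Its membrane cofactor CD46 rose by 1.60 ± 0.09 and 1.51 ± 0.09.

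CD59, which blocks the membrane attack complex, rose by 1.85 ± 0.11 in normal and by 1.58 ± 0.11 in mutant dogs at its brightest probe. The CD59 probe A_11_P073181 gave 1.96 ± 0.14 and 1.69 ± 0.14. A dimmer one, A_11_P073186, gave only 0.86 ± 0.28 in normal dogs and 0.39 ± 0.28, not called, in mutant dogs. Vitronectin (VTN), a fluid-phase inhibitor of that complex, rose by 2.01 ± 0.13 and 1.53 ± 0.13. C1QBP, a C1q-binding protein found largely in mitochondria, was called in normal dogs (0.55 ± 0.14, adjusted p = 0.0097, limma) and was at -0.17 ± 0.14 in mutant dogs. CPN1 and SUSD4 were tested and not called. Clusterin (CLU), another inhibitor of that complex, was not called at its brightest probe, which was saturated on most arrays, but 3 of its 5 probes were called higher in normal dogs and 2 in mutant dogs. The CLU probe A_11_P212903 gave 1.64 ± 0.19 and 1.16 ± 0.19 and A_11_P204503 gave 0.97 ± 0.18 and 0.75 ± 0.18, values chosen for mention after they were seen.

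Of 6 tested receptors 4 were called higher in both genotypes, with medians of 1.22 in normal and 1.43 in mutant dogs when the receptor known only by a bound is set at that bound. The filter kept VSIG4 and C5AR1 only through CNTF eyes, which favoured their call. ITGAM and ITGB2, which form complement receptor 3, rose by 3.34 ± 0.22 and 1.99 ± 0.26 in normal dogs and by 2.78 ± 0.22 and 1.97 ± 0.26 in mutant dogs. VSIG4, a macrophage receptor for C3b, rose by 3.80 ± 0.37 and 2.75 ± 0.37, with 1 of 5 PBS arrays of normal dogs and 2 of 5 of mutant dogs well above background. The C5a receptor C5AR1 was well above background on no PBS array, so its rise is a bound of at least 1.38-fold in normal and at least 1.86-fold in mutant dogs, and on CNTF arrays it was so on 1 of 5 and 4 of 5. In normal dogs the C5AR1 call was lost with normexp background correction (0.70), as were those of CFD (0.60) and C1QBP (0.51). CR2 and CD93 were at -0.31 ± 0.28 and 0.26 ± 0.15 in normal dogs and were not called. With slide as a block the calls of CFD, VTN, C5AR1, ITGB2 and VSIG4 were lost in both genotypes, those of MASP1, C8A and C1QBP in normal dogs, and those of C4, CFP and CD59 in mutant dogs. With slide and dog both as blocks all 14 calls in normal dogs and all 12 in mutant dogs were lost, with adjusted p of 0.0629 to 0.636 and 0.0952 to 0.968 (limma). Over the array that fit called 0 probes higher in normal and 37 in mutant dogs. None of the 23 genes was called for the difference of the CNTF effect or between the genotypes.

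**Figure D4:**
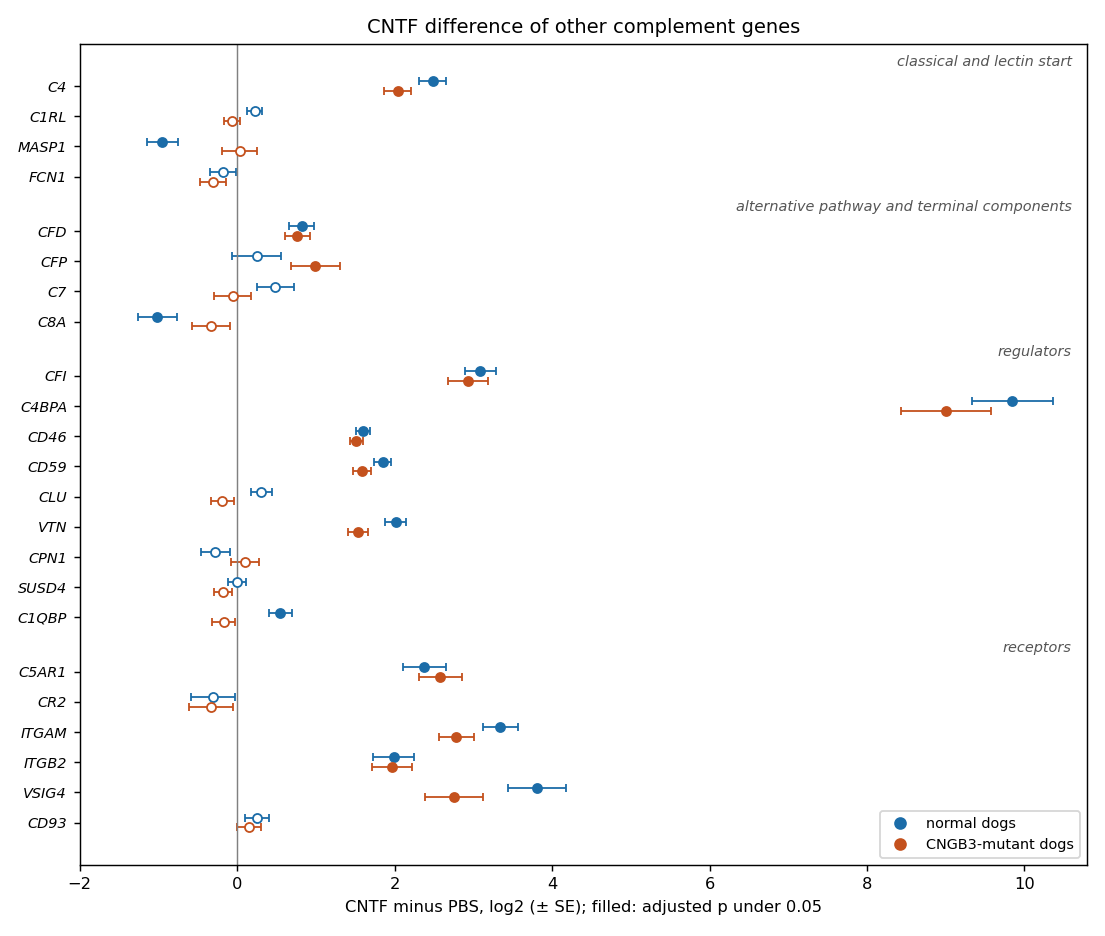
CNTF minus PBS difference (log2, points, with bars of 1 SE) of the 23 tested other complement genes by list, in normal (blue) and CNGB3-mutant (orange) dogs, filled where called at an adjusted p under 0.05. C4BPA, drawn at its fitted 9.85 and 9.01, and C5AR1, drawn at its fitted 2.37 and 2.58, rest on PBS arrays near background. Most other regulators and receptors that were called lie between 1.51 and 3.80. The upper end is VSIG4, with 1 of 5 PBS arrays of normal dogs well above background. MASP1 and C8A, called lower in normal dogs, lie at -0.95 and -1.01 there.

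By pattern over the 20 arrays, the gene symbols most like C3 were VMO1 (Pearson r = 0.997), PSMB8 (0.992) and PSMB10 (0.991), among 10547 symbols compared. VMO1 is a vitelline membrane outer layer protein homologue, and PSMB8 and PSMB10 encode immunoproteasome subunits. Their CNTF differences in normal dogs were 7.62, 4.51 and 3.99. Those most like C1QB were OAZ3 (0.993), DENND1C (0.991) and PTPN6 (0.988), the last a phosphatase of blood cells, with differences of 3.22, 3.31 and 2.06. The 20 arrays share the split into PBS and CNTF eyes, and these correlations are a description with no test.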

How the data were processed

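RNA of each eye (100 ng, RIN above 8, per the labels' protocols) was labelled with Cy3 and read on single-colour Agilent arrays. Per the file headers, the deposited intensity is Feature Extraction's processed signal, already background-corrected; the submitters' processing notes name Agilent Feature Extraction 9.5.3.1 and Partek 6.4. The authors also deposited log2 values, which follow the log2 signal but have 1 common median (6.18) on every array, and these served as an alternative.

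Control and outlier-marked spots were dropped, spots of a probe averaged, log2 taken and each array's 75th percentile subtracted. Of 43603 probes, 29466 were kept, each brighter than background (the scanner software's own mark) in 4 or more of the 5 eyes of some group. Tests used limma 3.58.1 in R 4.3.3, with 3 or more arrays per group; CNTF comparisons had dog as a block and genotype comparisons used 10 arrays with no covariate. The fit with dog as a block was run on simulated data with 200 changed probes. That simulation held dog effects but no slide effect, so it says nothing about slide in this layout. The labels' protocols state that both eyes of each dog were used, and eyes with the same replicate number were taken as 1 dog. Deviations of same-numbered eyes correlated at 0.17 to 0.74 over the 500 most variable probes and at -0.16 to 0.69 over all probes. The same-numbered eye was the best match for 9 of 10 dogs over those 500 probes. Over all probes it was the best match for only 5 of 10. No count of molecules lies behind an array value, so the number of arrays limits the precision.

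The members, gene lists and tests were chosen with earlier results of these data known. The text names all 9 members with every probe, other complement genes that were called (values for at most 6 per list, in order of adjusted p in normal dogs), and the 3 symbols most like C3 and C1QB. Alternatives were quantile and normexp (offset 50) scaling, the deposited values, other filters, slide or no block, male dogs only, leaving out each dog, and outlier spots kept. Gene order comes from RefSeq's UU_Cfam_GSD_1.0; exons and promoters were not analysed here. One listed gene is not reported here.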

Additional observations from a re-analysis of the deposited data

How the results depend on the processing

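Values of the 9 members under the alternatives kept their call or non-call in 892 cases; 25 lost the call, 18 of them with slide and dog both as blocks, 1 gained it (C1QA in PBS eyes without normal dog 1), and 9 values within slide 3, which carry no test, moved by more than 1 SD of the replicates. The fit without the replicate block called 9 members in each genotype, with 5755 probes higher in normal and 2828 in mutant dogs, against 6911 and 3409 with it. With slide and dog (replicate block) as blocks 0 members were called in either genotype, with 0 probes higher in normal and 37 in mutant dogs and 45 called for the difference of the CNTF effect. With slide as the block 5 members were called in mutant dogs, with 862 probes higher in normal and 499 in mutant dogs, 69 for the difference, 2 between genotypes in PBS eyes and 103 in CNTF eyes.

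Normexp background correction gave 3521 and 1846 probes higher, and between genotypes 2 in PBS eyes and 0 in CNTF eyes. For the genotype comparison of PBS eyes (8 probes called) quantile scaling gave 1, the deposited values 1, no filter 4, a random dog block over all 20 arrays 147, and male dogs 30. With outlier-marked spots kept, an alternative chosen after seeing the data, it gave 3. For CNTF eyes (2 probes called) quantile scaling, the deposited values, no filter and the filter on all 20 arrays each gave 0, the random block 22 and male dogs 5. Leaving out 1 dog gave 5268 to 7250 and 2708 to 3472 probes higher, 8 to 9 members in mutant dogs, 0 to 4 probes for the difference, 1 to 6292 (0 to 1 members) in PBS eyes and 0 to 60 in CNTF eyes. The cause of these changes was not tested.

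Of the values of other complement genes under the alternatives, 1310 kept their call or non-call, 58 lost a call (14 in normal and 12 in mutant dogs with slide and dog both as blocks), and 5 gained one. Levels near background in PBS eyes limit C3's dimmest probe and C5AR1 in both genotypes and C4BPA in normal dogs, whose folds are bounds, and also C4BPA in mutant dogs and VSIG4.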
